A study of Rattus norvegicus with 9 samples.

Results

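The genes described here encode tubulins, proteins that bind, stabilise or take apart microtubules, growth-cone proteins and transport motors. Together they build and supply the long processes of neural cells. The list has 51 genes, and it was drawn up with population differences of Tppp3 and Gap43 in these arrays already known. Of the 51, 41 were measured, by 61 probes, among 12167 genes and 35129 probes in all. The 10 without a probe of a single symbol are Tuba1b, Tubb2b, Tubb3, Stmn4, Map2, Map4, Mapre2, Dpysl3, Kif1a and Dync1h1.

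RNA came from cells sorted out of oligodendrocyte progenitor cultures of newborn rats, with no treatment named in the labels. The O4 population carried the O4 antigen, a sulfatide marker of later stages, and lacked the proteoglycan NG2. The NG2/A2B5 population carried NG2 together with A2B5, a ganglioside marker of early progenitors, and the NG2 population carried NG2 alone. Each population was hybridised to 3 single-dye arrays, which the labels tell apart by the numerals I, II and III, and arrays that share a numeral are called a set here. The series text speaks of 3 cultures, but the labels do not tie a numeral to a culture, so a p-value here speaks only of the spread among the 9 arrays, which may be partly technical. No source used here gives the strain or says whether animals were pooled.

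Oligodendrocyte progenitors extend and retract fine processes, and as they mature they grow a branched arbour of microtubule-filled branches that later wrap axons. Microtubules are hollow polymers of alpha and beta tubulin. Stathmins and severing enzymes take them apart, while tau, the MAP proteins, doublecortin and the TPPP proteins stabilise or bundle them. TPPP, also called p25, is known as a brain protein enriched in myelinating oligodendrocytes. GAP43, MARCKS and BASP1 sit under the membrane of growing tips, where they act on the actin cortex, and kinesins and dynein carry cargo along the tracks.

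All values are log2 of the deposited probe intensity. They do not rank one gene against another, since signal also depends on the probe. In each array the 25th percentile of all probes lay between 0.205 and 0.255 intensity units, and readings under it are called near background. Of the 41 members, 35 were above it on all 9 arrays and 0 were under it on all 9. The other 6 are Stmn2 (8 arrays under it), Kif1b (7), Mapre3 (6), Kif5c (6), Dpysl5 (5) and Dync1i1 (3), and they enter the counts below but no statement on a single gene. The 6 measured progenitor markers had a median level of 3.30, and 5 of them were never near background. Among them Sox10 and Cspg4 averaged 5.20 and 7.07, and Olig2 and Pdgfra -0.92 and -1.07. The 11 measured myelin genes had a median of -0.21, and 7 were never near background. Their summed linear intensity was 422.4 to 668.9 per array, whereas Mbp averaged -2.26 and was near background on 3 arrays. Of 10 microglia markers 3, C1qa, C1qb and C1qc, were near background on every array. Of 17 measured neuron markers Snap25 was near background on every array, whereas Uchl1 averaged 6.71 and Reln 5.59. In RNA from a whole sorted population, fewer cells of a kind and less RNA per cell cannot be told apart.

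In most of these genes, more of the spread over the arrays lay between sets than between sorted populations. For each of the 40 members read on all arrays, the sum of squares over the 9 arrays was divided into a share between populations, a share between sets and a remainder. The set share was larger than the population share in 30 of the 40, and in 29 of 38 without Tppp3 and Gap43. Its median was 45.6% against 24.1% for populations, where the medians over 12025 genes were 34.3% and 21.2%. Over all genes the set share was the larger in 61.1%. Among the members the set share was largest in Map1b (91.4%), Tubb6 (88.4%), Dcx (87.1%), Dclk1 (82.5%) and Tuba4a (82.1%). The population share was largest in Tppp3 (59.5%), Dpysl4 (59.0%), Map1lc3a (54.97%), Clasp2 (54.9%) and Tubb4a (52.1%). Tppp3 was among the reasons for the list.

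**Figure D1:**
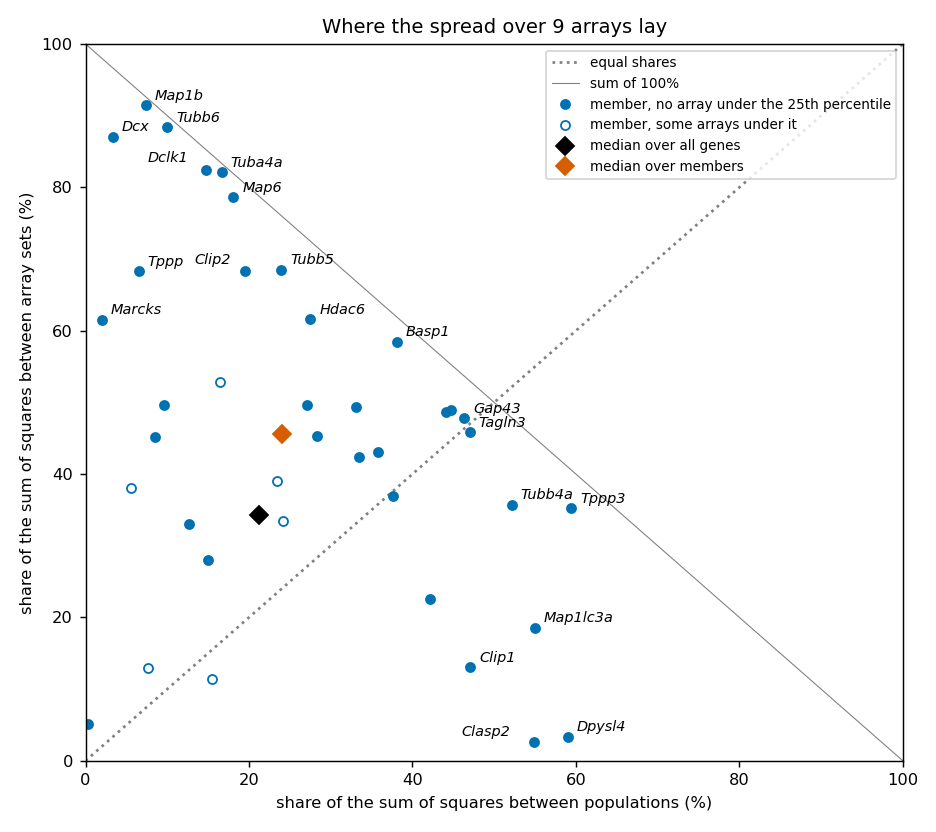
Share of the sum of squares of the log2 values over 9 arrays that lay between the 3 populations (x axis, %) and between the 3 array sets (y axis, %), 1 point per member read on all 9 arrays, with open points for members near background on some arrays and diamonds for the medians. Points above the dotted line, 30 of 40, varied more between sets than between populations, with Map1b at 91.4% and Tubb6 at 88.4% on the y axis and Tppp3 at 59.5% on the x axis.

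The members showed several shapes across the sets. In 20 of the 40, the same set read highest in all 3 populations, against 28.9% of all genes. In 8 of these it was set II: the tubulins Tuba1a, Tubb5 and Tubb6, the lattice-binding proteins Map1b, Map6 and Dclk1, the plus-end protein Mapre1 and the growth-cone protein Basp1. In 10 it was set III: Tppp, Map1lc3a, Dcx, Clip2, Gap43, Marcks, Marcksl1, Tagln3, Kif5a and Hdac6. In Tuba4a and Tppp3 it was set I. Among features whose mean was over the median of all genes, it was 18 of 23 members and 37.8% of genes.

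**Figure D2:**
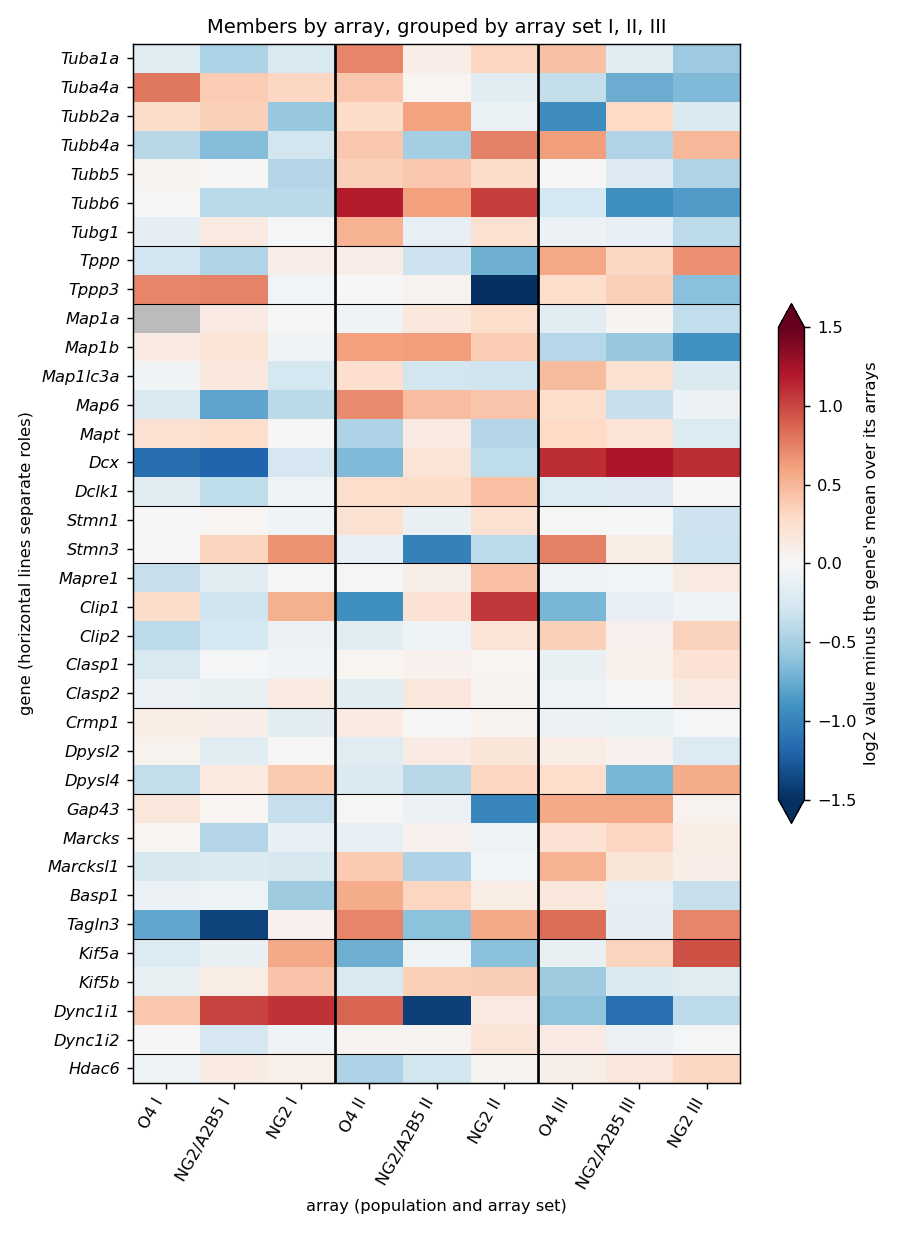
Log2 value of each member minus its mean over the arrays (colour, limited at 1.5 on either side), with 1 row per gene in order of role and 1 column per array, grouped by set I, II and III. The plot shows 36 members and leaves out the 5 that were near background on most arrays, and the grey cell is a missing value. Dcx is red in all 3 columns of set III, and Tubb6, Map1b and Map6 are red in all 3 columns of set II.

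Promoter sequence was available for 32 of the 41 measured members in the RefSeq table of assembly GRCr8. The 250 bases before the start of the gene are shown for 3 members that stood far apart between sets, Map1b and Tuba4a, which were lower in set III than in set II, and Dcx, which read higher there. All are on the minus strand and are written 5′ to 3′ along the gene, at chr2:32644472-32644721, chr9:84162585-84162834 and chrX:112304162-112304411. Capitals mark 4 motifs searched on both strands. They are the TATA box core TATAAA, the GC box core GGGCGG, the CCAAT box with its letters CCAAT, and the E-box CANNTG, which reads the same on either strand.
Map1b: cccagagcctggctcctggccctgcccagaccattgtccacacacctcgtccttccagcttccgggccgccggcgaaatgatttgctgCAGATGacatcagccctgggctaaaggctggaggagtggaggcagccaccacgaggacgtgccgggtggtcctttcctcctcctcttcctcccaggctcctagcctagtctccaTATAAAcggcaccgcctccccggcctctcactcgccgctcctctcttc
Tuba4a: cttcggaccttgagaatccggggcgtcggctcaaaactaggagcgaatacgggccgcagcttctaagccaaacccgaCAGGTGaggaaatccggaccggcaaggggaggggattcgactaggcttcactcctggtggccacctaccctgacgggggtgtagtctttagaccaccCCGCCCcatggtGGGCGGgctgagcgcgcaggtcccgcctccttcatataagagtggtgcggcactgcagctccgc
Dcx: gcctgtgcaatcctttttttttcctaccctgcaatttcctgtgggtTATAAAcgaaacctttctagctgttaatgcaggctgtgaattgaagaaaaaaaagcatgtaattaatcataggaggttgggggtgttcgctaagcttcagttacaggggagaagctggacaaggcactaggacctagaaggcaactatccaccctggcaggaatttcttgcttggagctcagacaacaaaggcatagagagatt
In Map1b, TATAAA begins 48 bases before the start and an E-box 162 bases before it. In Tuba4a, GGGCGG occurs on both strands, 76 and 64 bases before the start, and an E-box 173 bases before it. The match in Dcx is TATAAA, 204 bases before the start. Of 33469 such windows, 12.9% hold the TATA box core, 30.5% the GC box core, 34% the CCAAT box and 65.5% an E-box. These letters describe the windows, and no factor's binding was measured here.

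The sets were compared in a linear model with population and set as terms, fitted to all genes with limma, with Benjamini-Hochberg adjustment over all genes. Tubb6 and Map1b passed the F test over the 3 sets, 2 of 41 members against 0.674% of all genes. At an unadjusted p under 0.05 it was 17 of 41, or 41.5%, against 21.5% of all genes. By role, those 17 were 5 of 7 tubulins, 2 of 2 tubulin polymerisation promoters, 4 of 7 lattice-binding proteins, 3 of 5 growth-cone proteins, 1 of 6 plus-end proteins, 1 of 6 motors and the deacetylase, but 0 of 3 stathmins and 0 of 4 collapsin response mediators.

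Tubb6 encodes a beta tubulin made in many tissues, and it had the smallest p of all members. In the order O4, NG2/A2B5 and NG2, its log2 values in set II were 5.61, 5.05 and 5.47. In set III they were 4.18, 3.51 and 3.58, and in set I 4.45, 4.03 and 4.04. Every array of set II lay above every array of the other sets, which overlapped each other. Set III was lower than set II by 3.07-fold, a log2 difference of -1.62 (95% interval -1.96 to -1.28, limma adjusted p = 0.0216). Between sets II and I the difference was 1.20 (0.86 to 1.55, limma adjusted p = 0.0523).

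Map1b encodes a large microtubule-associated protein of growing neural processes. It read 5.60, 5.61 and 5.36 in set II for O4, NG2/A2B5 and NG2, 5.10, 5.18 and 4.93 in set I, and 4.55, 4.41 and 4.06 in set III. No array of one set overlapped those of another, and within every set NG2 read the lowest. The difference of set III from set II was -1.18 (-1.46 to -0.89, limma adjusted p = 0.0228), or 2.26-fold. A second Map1b probe, at a mean of 2.53, gave -1.40.

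Tuba4a encodes an alpha tubulin that, unlike most, is made without the terminal tyrosine. Its values in O4, NG2/A2B5 and NG2 were 3.12, 2.71 and 2.64 in set I, 2.74, 2.36 and 2.17 in set II, and 1.98, 1.58 and 1.67 in set III. All arrays of set III lay under all those of the other sets. The difference between sets III and II was -0.68 (-0.96 to -0.40, limma adjusted p = 0.0466). Against set I, where no gene passed, it was -1.08 (-1.37 to -0.80). The adjusted p between III and II was 0.0706 with the mean of each gene's probes, 0.0666 with every probe tested and 0.112 with set as the only term.

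These 3 were the members called between sets III and II, all lower in set III, against 3.55% of all genes called in either direction and 1.92% called lower. In the other set comparisons limma called 0 members, against 0% of all genes between III and I and 0.23% between II and I, with 14 at an unadjusted p under 0.05 between III and I (12.6% of all genes) and 13 between II and I (17.2%). Every fit that left out 1 array called 0 members in each set comparison and at most 5 of all genes, and then the adjusted p of Tubb6 between III and II ran from 0.0559 to 0.121. Its difference stayed between -1.70 and -1.495, and those of Map1b and Tuba4a kept their sign. With a variance trend over expression level, 11 members were called between III and II (15% of all genes), 4 between III and I (2.15%) and 7 between II and I (6.35%).

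**Figure D3:**
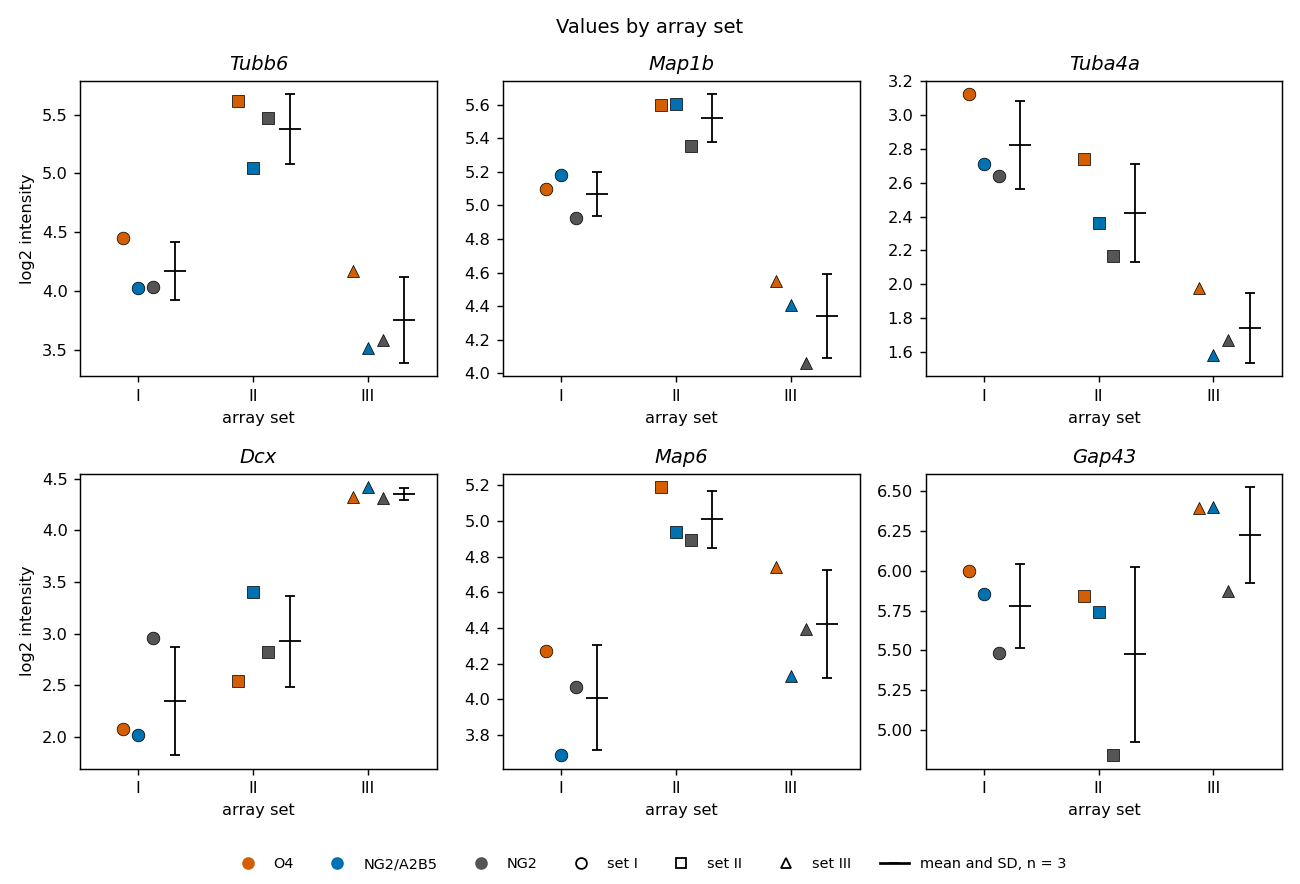
Log2 intensity of 6 members (y axis) in array sets I, II and III (x axis), with colour for the population, shape for the set, and bars for the mean and SD of the 3 arrays of a set. Tubb6 and Map6 are highest in set II, Dcx is highest in set III on all 3 arrays, from 4.32 to 4.42, and Tuba4a is lowest there.

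Doublecortin, the product of Dcx, bundles microtubules in migrating neuroblasts, and its gene had the widest range of any member that was never near background, 2.40 on the log2 scale. In set III it read 4.32, 4.42 and 4.32 in O4, NG2/A2B5 and NG2. In set I the values were 2.08, 2.01 and 2.95, and in set II 2.54, 3.41 and 2.82. The 3 arrays of set III were close to each other and above all others. Set III exceeded set I by 4.01-fold, a difference of 2.00 (1.24 to 2.77, limma adjusted p = 0.193), and set II by 1.43 (0.66 to 2.19, limma adjusted p = 0.0718). The other 2 probes of Dcx were near background on 8 arrays each. Only 3.33% of its sum of squares lay between populations.

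Map6 encodes STOP, a protein that keeps microtubules stable in the cold, and like Tubb6 it read highest in set II in every population. It read 5.19, 4.94 and 4.90 in set II for O4, NG2/A2B5 and NG2, 4.27, 3.69 and 4.07 in set I, and 4.74, 4.13 and 4.40 in set III. Sets II and I differed by 1.0 (0.67 to 1.33, limma adjusted p = 0.0640) and did not overlap. Of the 3 further probes of the gene, 2 above background gave 0.86 and 0.85. Dclk1, a kinase related to doublecortin, differed by 0.53 in the same comparison and Basp1 by 0.56, both without overlap of arrays. The 3 other Dclk1 probes gave 0.43, 0.47 and -0.21.

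Other genes differed in level between the sets as well. The sums given here are of linear intensity and weigh the brightest genes most. The summed intensity of 9 astrocyte markers was 111.9 to 160.5 in set III, 66.3 to 101.7 in set II and 90.2 to 111.7 in set I. Single astrocyte markers went both ways, with 4 of 9 above 0 and 5 below between III and II (median -0.26), and Gfap and Aldoc, at 1.72 and 1.27, called higher in set III. The 11 myelin genes summed to 536.5 to 668.9 in set III and to 422.4 to 512.7 in the other sets, and the 6 progenitor markers to 223.4 to 251.5 against 144.8 to 204.2. Between III and II, 7 of the 11 myelin genes and 4 of the 6 progenitor markers were above 0. The 15 cell cycle genes summed to 499.0 to 589.4 in set III and 587.4 to 749.9 in set II, with all 15 differences between III and II below 0. The 17 neuron markers overlapped, at 192.1 to 228.7 in set III and 198.3 to 270.8 in set II, with 6 of 17 above 0. Their part in the differences of Tubb6, Map1b, Tuba4a and Dcx was not tested.

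Between sorted populations, limma called 0 of the 39 members other than Tppp3 and Gap43, around which the list was built, in each of the 3 contrasts. At an unadjusted p under 0.05 there were 2 of 39 in O4 against NG2 (8% of all genes), 0 in O4 against NG2/A2B5 (3.28%) and 3 in NG2/A2B5 against NG2 (4.48%). The numbers of all genes called after adjustment were 1, 1 and 0, that is 0.00822%, 0.00822% and 0%. Of these 39, 23 read higher in O4 than in NG2 and 16 lower, with a median difference of 0.12 beside 0.016 over all genes, of which 51.9% were higher. In O4 against NG2/A2B5 it was 26 and 13 (0.11, all genes 0.020 and 53.2% higher), and in NG2/A2B5 against NG2 15 and 24 (-0.10, all genes -0.011 and 48.4% higher). The fits behind these p-values had no term for the set. Limma was also fitted with the set as a block. Members then at an unadjusted p under 0.05 in O4 against NG2/A2B5 included Tubb6, Map6, Tuba4a, Tubb4a, Tuba1a, Tagln3 and Kif5b (6.07% of all genes). In O4 against NG2 they included Tuba4a, Mapre1, Tubb6, Map1lc3a, Map1b, Tubb5, Basp1 and Kif5b (13.1%). In NG2/A2B5 against NG2 they included Tubb4a, Dpysl4 and Tagln3 (8.69%). Full counts of the 39 under this fit are not given, so these lists cannot be set against the shares. After adjustment, 0 of the 39 were called in each contrast.

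Tppp3 encodes a small relative of TPPP that promotes tubulin polymerisation and bundling. It was among the reasons for the list, so its population values are a description with no test. In O4 it read 4.12, 3.38 and 3.65 in sets I, II and III, or 3.72 ± 0.37 (SD, n = 3). In NG2/A2B5 it read 4.13, 3.44 and 3.75 (3.77 ± 0.34), and in NG2 3.35, 1.89 and 2.77 (2.67 ± 0.73). All NG2 arrays lay under all arrays of the other populations. The difference from NG2 was 1.05 in O4, or 2.07-fold, and 1.10 in NG2/A2B5, or 2.15-fold. Without NG2 array II, the lowest, they were 0.66 and 0.72. Within sets I, II and III it was 0.77, 1.49 and 0.89 for O4 and 0.78, 1.55 and 0.98 for NG2/A2B5. Between O4 and NG2/A2B5 it was -0.053, and within the sets no more than 0.096 in size. By set, Tppp3 was highest in I and lowest in II in every population, with a difference of -0.96 between II and I (-1.42 to -0.49, limma adjusted p = 0.115).

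Tppp itself had another order over these arrays than Tppp3. In sets I, II and III it read 1.496, 1.89 and 2.37 in O4, 1.33, 1.47 and 2.10 in NG2/A2B5, and 1.89, 1.05 and 2.46 in NG2. The populations overlapped, with a difference of 0.12 between O4 and NG2. Set III was the highest in each population and exceeded set II by 0.84 (0.20 to 1.48, limma adjusted p = 0.131). Its other probe was near background on 8 arrays.

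Gap43 encodes neuromodulin, a protein of growing and regenerating tips. It too was named in building the list, and its population values are given without a test. In sets I, II and III it read 5.999, 5.84 and 6.395 in O4 (6.08 ± 0.28, SD, n = 3), 5.85, 5.74 and 6.4 in NG2/A2B5 (5.998 ± 0.35), and 5.49, 4.84 and 5.87 in NG2 (5.40 ± 0.52). NG2 read lowest within every set, but its array of set III lay among the arrays of the other populations. The difference from NG2 was 0.68 in O4 and 0.60 in NG2/A2B5. Without NG2 array II these were 0.40 and 0.32, and without NG2/A2B5 array III the second was 0.396. Marker sums weigh the brightest genes most, and the median log2 level was only -0.18 in the neuron list and -0.21 in the myelin list. Neuron markers summed to 184.4 to 270.8 in NG2, 228.7 to 257.4 in O4 and 188.7 to 211.9 in NG2/A2B5, and myelin genes to 425.5 to 536.5, 422.4 to 668.9 and 435.3 to 576.7, so that NG2 overlapped both others in these lists. Astrocyte markers summed to 90.2 to 111.9 in NG2, 66.3 to 156.4 in O4 and 101.7 to 160.5 in NG2/A2B5. The dim microglia markers, at 6.06 to 7.17 in NG2 and 5.78 to 7.12 in NG2/A2B5, lay under those of O4, at 7.34 to 10.4. Their part in the values of Tppp3 and Gap43 was not tested. A second Gap43 probe, at a mean of 4.77, gave 0.29 and 0.42. Between sets III and II Gap43 differed by 0.75 (0.38 to 1.12, limma adjusted p = 0.0618) and its second probe by 0.97.

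**Figure D4:**
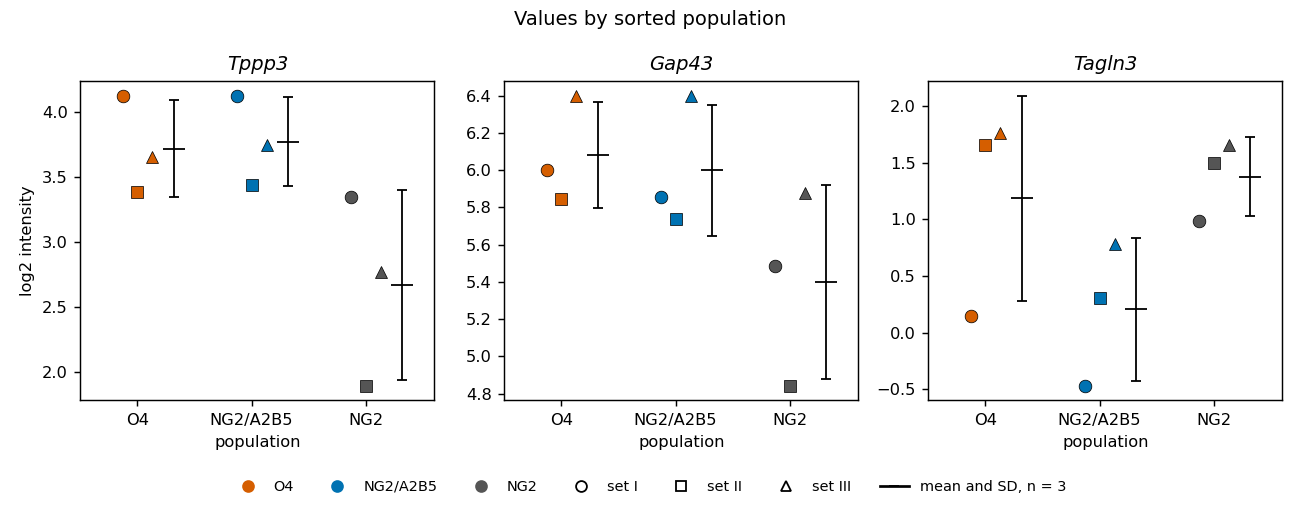
Log2 intensity of Tppp3, Gap43 and Tagln3 (y axis) in the O4, NG2/A2B5 and NG2 populations (x axis), with shape for the array set and bars for the mean and SD of 3 arrays. Tppp3 is lower on all 3 NG2 arrays than on any other, the populations overlap for Gap43, and Tagln3 is lower on the 3 NG2/A2B5 arrays than on the 3 NG2 arrays.

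Other growth-cone genes had other orders. Tagln3, a calponin-like actin-binding protein of neurons, read 0.98, 1.49 and 1.65 in sets I, II and III of NG2, -0.47, 0.30 and 0.78 in NG2/A2B5, and 0.14, 1.66 and 1.76 in O4. NG2/A2B5 read lowest within every set. It differed from NG2 by -1.17 (-2.32 to -0.028), with no overlap (limma adjusted p = 0.9999, 0.0459 before adjustment). The actin-regulating substrates of protein kinase C, Marcks and Marcksl1, differed between O4 and NG2 by 0.07 and 0.28 and overlapped. A second Marcks probe differed by 0.08. Basp1 read 0.47 higher in O4 than in NG2 (-0.10 to 1.04 with no term for the set). It was higher by 0.45, 0.45 and 0.51 within the sets, and by 0.30 without O4 array II.

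Of the tubulins, Tubb4a, a beta tubulin abundant in oligodendrocytes, read 0.77, 0.92 and 0.97 in NG2/A2B5, 1.002, 1.83 and 2.05 in O4, and 1.15, 2.18 and 1.93 in NG2. NG2/A2B5 lay under both other populations without overlap. It differed from NG2 by -0.87 (-1.66 to -0.073, limma adjusted p = 0.9999, 0.0360 before adjustment), and O4 exceeded it by 0.74 (-0.054 to 1.54). Tubb2a, another neural beta tubulin, ran the other way, with NG2/A2B5 above NG2 by 0.72 (-0.062 to 1.501) and above O4 by 0.55. Without O4 array III, O4 minus NG2/A2B5 was -0.14 in place of -0.55. The second Tubb2a probe, near background on 8 arrays, gave 0.67 and, for O4 minus NG2/A2B5, 0.10. The bright beta tubulin Tubb5 differed between O4 and NG2 by 0.33 and by -0.20 with its second probe, also bright. Tuba1a, the main alpha tubulin of developing brain, was higher in O4 than in NG2/A2B5 by 0.51 (-0.22 to 1.23), by 0.76 without O4 array I and by 0.31 without O4 array II. Gamma tubulin (Tubg1), which seeds microtubules, ranged over 0.92 on the log2 scale with no order by population. Tubulin genes of the same family, alpha or beta, are similar in sequence, and no source used here says how far these probes tell them apart.

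Among the lattice-binding proteins, Map1lc3a, a light chain of MAP1 proteins and marker of autophagosomes, read 5.54, 5.85 and 6.07 in O4 and 5.33, 5.30 and 5.38 in NG2. These arrays did not overlap, and the difference was 0.48 (0.028 to 0.94, limma adjusted p = 0.617, 0.0400 before adjustment). Its relative Map1lc3b, from the wider list, differed by 0.60. Tau (Mapt) was higher in NG2/A2B5 than in NG2 by 0.41 (-0.12 to 0.94), without overlap. Map1a was missing on 1 O4 array and differed between O4 and NG2 by -0.075, which rests on 2 O4 arrays.

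Plus-end proteins, which track growing microtubule tips, read lower in O4 than in NG2 in 5 of 6 members (48.1% of all genes). In NG2/A2B5 they read lower than in NG2 in 6 of 6 (51.6%), with 0 called. Both counts use the same NG2 arrays, and the 6 include Mapre3, which was near background on 6 arrays. Clip1, a linker of tips to the cell cortex, read -0.35, -1.54 and -1.31 in O4 and -0.085, 0.43 and -0.68 in NG2. Within sets I, II and III O4 minus NG2 was -0.26, -1.98 and -0.63, although the arrays overlapped. The difference was -0.96 (-1.85 to -0.065, limma adjusted p = 0.613, 0.0386 before adjustment). Mapre1, which encodes EB1, differed by -0.33 and, with a dimmer second probe that was missing on NG2 array III, by -1.30. Clasp2, a rescue factor of microtubule ends, was among the steadiest members, with a range of 0.32, and its O4 arrays (5.45 to 5.52) lay under its NG2 arrays (5.64 to 5.73).

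Dpysl4, a collapsin response mediator of the family that ties guidance signals to tubulin, read -0.66, -0.74 and -0.49 in NG2, -0.90, -1.47 and -1.74 in NG2/A2B5, and -1.41, -1.27 and -0.79 in O4. NG2 lay above both others without overlap. The differences were -0.74 in NG2/A2B5 (-1.33 to -0.15, limma adjusted p = 0.979, 0.0208 before adjustment) and -0.53 in O4 (-1.12 to 0.065). Its relatives Dpysl2 and Crmp1 hardly varied, with ranges of 0.39 and 0.30 over the 9 arrays.

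Stmn1, a stathmin of dividing and growing cells, ranged from 7.59 to 8.14 and differed between O4 and NG2 by 0.13. Stmn3 ranged over 1.78 with overlap of all populations. Of the motors, the kinesin gene Kif5b, whose product moves cargo along many kinds of process, differed by -0.49 in O4 minus NG2. The interval was -1.04 to 0.053 with no term for the set. Within sets I, II and III the differences were -0.54, -0.60 and -0.35. The neuronal kinesin gene Kif5a differed by -0.64 and its second probe by 0.57. Dync1i2, a dynein intermediate chain, had a range of 0.44. Hdac6, a deacetylase of tubulin, read 0.29 lower in O4 than in NG2 (-0.76 to 0.18).

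Members whose arrays did not overlap between populations were counted among the 39 other than Tppp3 and Gap43, with the share of all genes beside each count. Higher in O4 than in NG2 was 1, Map1lc3a (7.51% of all genes), and lower were 2, Dpysl4 and Clasp2 (6.54%). In O4 against NG2/A2B5 it was 1 higher, Tubb4a (5.3%), and 2 lower, Tubb2a and Kif5a (3.37%). In NG2/A2B5 against NG2 it was 2 higher, Tubb2a and Mapt (5.19%), and 3 lower, Dpysl4, Tubb4a and Tagln3 (5%). Between sets III and II the 41 members counted 5 higher (10.5%) and 8 lower (16%), between III and I 5 higher (10.2%) and 6 lower (8.18%), and between II and I 10 higher (14.8%) and 1 lower (6.77%).

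The wider microtubule and growth-cone list held 139 other genes, of which 105 were measured. Limma called 0 of them in each population contrast, with 14, 1 and 2 at an unadjusted p under 0.05 in O4 against NG2 (8% of all genes), O4 against NG2/A2B5 (3.28%) and NG2/A2B5 against NG2 (4.48%). Spast, which encodes the severing enzyme spastin, gave -0.75 for O4 minus NG2 and -0.46 for O4 minus NG2/A2B5. Map1s, a small MAP1 relative, was higher than in NG2 by 0.53 in O4 and 0.40 in NG2/A2B5, and Dctn6, a dynactin subunit, by 0.56 in NG2/A2B5. Nav3, a navigator protein, read 1.03 higher in O4 than in NG2/A2B5. Farp1 was near background on 7 arrays. Tubulin-modifying and severing enzymes were lower in NG2/A2B5 than in NG2 in 10 of 10 (51.6% of all genes) and in O4 in 9 of 10 (48.1%). Their medians were -0.30 and -0.36, and both counts use the same NG2 arrays. Other kinesins were higher in O4 than in NG2 in 12 of 14 (51.9%, median 0.35), and 0 of either list were called. Only 7 of the 10 enzymes and 9 of the 14 kinesins were never near background, so both counts include signs of near-background readings.

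Between sets III and II, 4 of these 105 were called, all lower in set III, where 1.92% of all genes were called lower. They were Mtus1, a microtubule-associated tumour suppressor, at -1.41, Gas2l1, a linker of actin and microtubules, at -0.99, Dbn1, which encodes the actin-binding protein drebrin, at -0.68, and Kif13a, a kinesin near background on 7 arrays, at -0.75. The next by the F test was Nrn1, neuritin, at -1.19. In this comparison 0 of the 105 were called higher. Of the 105, 40 were above 0 and 65 below (56.9% of all genes), with a median of -0.21 beside -0.077 over all genes.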

How the data were processed

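The 9 arrays were taken from the deposited table, in which the authors give each probe's scaled intensity on a linear scale. Per the labels' protocols, RNA was amplified by in vitro transcription and spiked controls were used for normalization. No source used here names the scanner, background correction or scaling. The medians of the 9 arrays were 1.05 to 1.07, and the values were not scaled again. Values coded -9999 were missing, values at or below 0 were set to the smallest positive value of their array, and log2 was taken. Of the probes, 16865 carry 1 symbol and were used, 165 carry several and 18099 none. Symbols were updated through the RefSeq gene table of GRCr8 (16836 probes matched). The probe with the highest mean stood for a gene.

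Population contrasts came from limma 3.58.1 in R 4.3.3 (lmFit and eBayes, two-sided) on all 9 arrays with population as the term (6 residual degrees of freedom), set contrasts from a model with population and set (4). A gene was called at an adjusted p under 0.05 over all genes. Intervals are 95% intervals, and those between populations come from the fit with no term for the set. Precision is limited by having 3 arrays in a population. The pipeline was tested on simulated data. The members, gene lists and tests were chosen with earlier results of these data known. Named are all members, the 3 wider-list genes with the smallest p in each population contrast, those called between sets and the 5 with the smallest F-test p. Settings tried were quantile normalization, centring, a floor or filter at the 25th percentile, the mean of a gene's probes, every probe, variance trend and robust estimates (statmod 1.5.0), the numeral as a block, only the 6 arrays compared, sets without the population term, and leaving out each array. Counts over genes brighter than the median were added after the data were seen. Figures used matplotlib 3.10.9 in Python 3.11.15.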

Additional observations from a re-analysis of the deposited data

How the results depend on the processing

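Deviations from the population means correlated by 0.037 to 0.14 between arrays of 1 numeral (3 of 9 pairs over 0.1). In the other 18 pairs the correlation was -0.11 to 0.0065, under every pair of 1 numeral. Correlations were thus small but higher within a numeral, and the main population fits had no term for it. With the numeral as a random block the estimated correlation was 0.274. Tppp3 and Gap43 are left out of the counts between populations. With the replicate block, fixed or random, 0 of the other 39 members were called in each population contrast, as without it. The fixed block with trend and robust estimates called 1 of 39 in NG2/A2B5 against NG2 (Tagln3, limma adjusted p = 0.0146), beside 0.781% of all genes. Leaving out 1 array gave 0 to 0 members called in every contrast and in the F test over sets, where the full fit has 2, and 3 between III and II. For the F test, III minus II, III minus I and II minus I in turn, the counts were 8, 8, 2 and 3 of 41 when low values were raised to the 25th percentile (7.5%, 10.6%, 0.403% and 3.3% of all genes), 7, 7, 2 and 3 with genes under it left out (8.31%, 12.3%, 0.252% and 3.68%), 15, 11, 4 and 7 with trend (14.1%, 15%, 2.15% and 6.35%) and 15, 11, 4 and 9 with trend and robust (15%, 15.5%, 2.56% and 6.85%). The F test called 1 with the mean of a gene's probes (0.296%) and 0 with every probe tested (0%). The cause was not tested. Among the differences recomputed under all settings, the sign reversed in 12 cases. Gap43 in O4 minus NG2/A2B5 was -0.043 after quantile normalization, -0.021 with the mean of its probes, -0.12 with its other probe, -0.076 without array III of O4 and -0.048 without array II of NG2/A2B5, in a range of -0.076 to 0.28 over fits without 1 array. Tppp3 in that contrast was 0.11 without array II of O4 and 0.12 without array I of NG2/A2B5, in a range of -0.25 to 0.12. Dcx in III minus II was -0.27 with the mean of its probes, which includes those near background. With another probe it was -2.85, and -2.26 in III minus I. That probe was near background on 8 arrays and read -12.29 on NG2 array III. The third probe, also near background on 8 arrays, kept the sign, at 0.63 and 0.78. Another probe gave 0.10 for Tubb2a in O4 minus NG2/A2B5 and -0.21 for Dclk1 in II minus I. Of differences set only against another probe, Kif5a and Tubb5 in O4 minus NG2 turned to 0.57 and -0.20, and Tppp in III minus II to -0.17 with a probe near background. The differences of Tubb6, Map1b and Tuba4a between III and II kept their sign under every setting run.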
